A study of Mus musculus with 6 samples.

Results

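The genes described here are 49 genes of the cell division cycle, taken by symbol from a list of S phase and G2/M genes, cyclins and inhibitors, and all 49 were found among the 52550 genes of the deposited count table. They comprised 20 S phase genes, 20 G2/M genes, 5 D-type cyclins and their kinases (G1 genes) and 4 inhibitors of cyclin-dependent kinases (CDKs). RNA-seq was performed on bone marrow-derived macrophages (BMDMs) from mice lacking the class A scavenger receptor MSR1 (MSR1 KO, n = 3 libraries) and from MSR1 wild-type mice (MSR1 WT, n = 3 libraries), all of strain C57BL/6. Marrow cells of both genotypes were grown for 7 days in 25 ng/ml M-CSF, the growth factor that drives macrophage proliferation and survival, and then shared medium with bone marrow stromal cells (BMSCs) across a transwell membrane for 48 h. Every library therefore comes from co-cultured cells. The labels do not say whether the libraries of a genotype came from separate mice, so p-values measure the spread between these libraries only. The age and sex of the mice are not given in the sources used here, and the deletion was present in the mice from which the marrow was taken.

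A cell that divides copies its DNA in S phase and separates the copies in mitosis, and most genes of these steps are transcribed in waves. The S phase wave (helicase subunits, polymerase clamp, enzymes that make nucleotides) is driven by E2F factors through E2F sites. The later G2/M wave (mitotic cyclins, spindle motors, checkpoint kinases) depends on the MuvB complex with B-MYB and FOXM1, which acts through the cell cycle genes homology region (CHR), often with a CCAAT box nearby. Macrophages grown in M-CSF divide while they mature and then leave the cycle, so a bulk library holds the RNA of cells that still divide mixed with that of cells that have stopped. In such libraries fewer dividing cells and less RNA per dividing cell cannot be told apart.

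Promoters are shown for 4 G2/M members and 2 S phase members because the classes were read apart and differ in these elements. Sequences are from RefSeq on GRCm38.p6, written 5′ to 3′ on the strand of the gene, and hold 150 bases upstream of the annotated start that lie in no exon of the GENCODE M21 annotation. Capitals mark the CHR (TTTGAA or TTCGAA on either strand) in the first 4 and the E2F site (TTTCCCGC, TTTGGCGC, TTTCGCGC or TTTGCCGC on either strand) in the last 2. Mki67 at chr7:135716380-135716529 and Cdc20 at chr4:118437353-118437502 are on the minus strand, as is Cdk1 at chr10:69352939-69353088, whereas Kif11 at chr19:37376232-37376381 is on the plus strand. Mcm6 at chr1:128359706-128359855 is on the minus strand and Mcm5 at chr8:75109359-75109508 on the plus strand.
Mki67: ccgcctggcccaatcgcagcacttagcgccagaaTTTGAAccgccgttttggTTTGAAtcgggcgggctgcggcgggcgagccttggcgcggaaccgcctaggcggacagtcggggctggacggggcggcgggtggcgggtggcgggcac
Cdc20: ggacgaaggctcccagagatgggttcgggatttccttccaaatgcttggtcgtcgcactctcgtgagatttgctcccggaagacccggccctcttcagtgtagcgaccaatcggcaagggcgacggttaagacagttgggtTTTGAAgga
Cdk1: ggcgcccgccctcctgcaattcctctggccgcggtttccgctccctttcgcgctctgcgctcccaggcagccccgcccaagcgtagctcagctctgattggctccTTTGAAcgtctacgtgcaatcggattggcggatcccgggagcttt
Kif11: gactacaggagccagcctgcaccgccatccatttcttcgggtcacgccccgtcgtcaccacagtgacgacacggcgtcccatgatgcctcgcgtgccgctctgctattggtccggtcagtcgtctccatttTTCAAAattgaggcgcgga
Mcm6: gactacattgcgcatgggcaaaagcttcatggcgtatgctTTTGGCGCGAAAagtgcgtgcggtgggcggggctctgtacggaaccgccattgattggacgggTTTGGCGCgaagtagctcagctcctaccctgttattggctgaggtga
Mcm5: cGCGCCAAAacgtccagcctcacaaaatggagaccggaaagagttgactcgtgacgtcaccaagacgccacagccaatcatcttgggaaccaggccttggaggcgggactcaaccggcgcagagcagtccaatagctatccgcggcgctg

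Of the 49 members, 39 had a promoter in the RefSeq table (15 G2/M members and 17 S phase members among them, 1 of the latter with 2 promoters), read as windows of 300 bases from 250 before to 50 after the start. The CHR letters were found in 80.0% of G2/M promoters (12 of 15) and 16.7% of S phase promoters (3 of 18), against 19.2% of all 32851 promoters in the table. The E2F letters were found in 6.67% of G2/M promoters (1 of 15, that of Cdk1) and 44.4% of S phase promoters (8 of 18), against 2.26% of all promoters. A CCAAT box (CCAAT on either strand) was present in 93.3% of G2/M and 66.7% of S phase promoters, against 37.4% of all. Mki67 carried a pair of CHR copies at 116 to 111 and 98 to 93 bases before its start, and Mcm6 a pair of E2F matches that overlap each other and a further one downstream of them. No letters of the CHR, CCAAT or E2F motifs contain those of another. None of these matches was tested for binding of a factor. The same contrast was seen in genes outside the list, with the CHR letters in 78.8% of the promoters of 47 other mitosis genes and in 18.4% of those of 41 other replication genes. The E2F letters were present in 5.77% and 28.6% of these promoters.

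**Figure D1:**
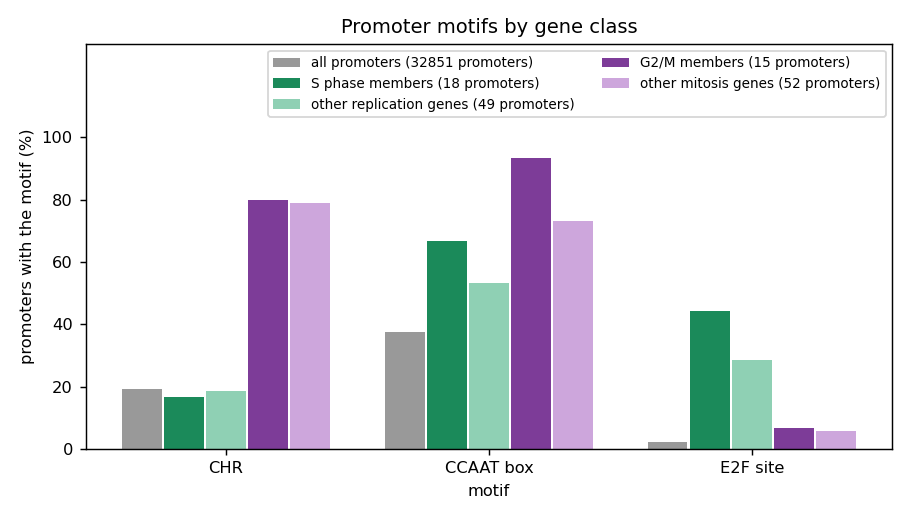
Share of promoters (%, vertical axis) that hold the CHR, CCAAT box or E2F letters, for all promoters of the RefSeq table and for 4 gene classes (bars). The CHR bars of both mitotic classes stand near 80% and those of the replication classes near the grey bar of all promoters, while E2F matches are most frequent in the S phase members.

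Libraries held 36143518 to 47417448 counts, and 16402 genes, all 49 members among them, passed the filter on low counts. Members were well covered, from 38 counts for Cdkn2a in MSR1 KO replicate 3 to 14432 counts for Mki67 in MSR1 WT replicate 2. Values are given as CPM (the count of a gene scaled to a fixed library total), with TMM scaling between libraries. Msr1, the targeted gene, had 58.97, 45.8 and 43.03 CPM in MSR1 KO and 183, 193 and 223 CPM in MSR1 WT libraries. With a log2 fold change of -2.02 (SE 0.14, edgeR adjusted p = 0.0012), the gene was lower in MSR1 KO. The targeted gene thus went the way of the labels, although reads on Msr1 remained in MSR1 KO libraries. Of 12 macrophage markers, Fcgr1 was higher and Mrc1 lower at an adjusted p under 0.05, and the list's summed level was 29475 to 31093 CPM in MSR1 KO and 29245 to 32345 CPM in MSR1 WT libraries. Lyz2, Csf1r and Adgre1, which encode lysozyme, the M-CSF receptor and F4/80, were the most abundant of them.

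Across the 49 members, 45 had a log2 fold change below 0 in MSR1 KO libraries compared to MSR1 WT libraries, where 50.4% of all tested genes did. After Benjamini-Hochberg adjustment over all tested genes, 1 member (Pcna) was lower and 0 members were higher at an adjusted p under 0.05 by edgeR's quasi-likelihood test. Over all tested genes, 2.66% were lower and 2.25% were higher by this call. Without MSR1 WT replicate 3, 18 members were lower (2.21% of all genes tested in that fit), without MSR1 KO replicate 2 only Pcna (1.52%), and without any of the other 4 libraries 0 (0.314% to 0.896%), while DESeq2's Wald test on all 6 libraries called 19 lower (5.18% of all tested genes). At an unadjusted p under 0.05, 25 members were lower and 1 member, Cdkn1b, was higher, with 10.2% and 8.65% of all tested genes as background. The study's definition of a differentially expressed gene (fold change above 1.5 and unadjusted p under 0.05) was met by 17 members in the lower direction and 0 in the higher direction, where 5.05% and 3.59% of all tested genes met it. This count was 7 without MSR1 WT replicate 2 (4.49% of all genes tested in that fit), 11 without MSR1 KO replicate 3 (4.6%) and 14 to 22 without each of the other libraries (3.99% to 5.55%). In 18 members the highest MSR1 KO library was below the lowest MSR1 WT library, which held for 13.4% of all tested genes, and in 0 members did all MSR1 KO libraries lie above (12.1%). The classes differed in size of effect. The median log2 fold change was -0.80 over the G2/M members, -0.20 over the S phase members, -0.03 over the G1 genes and -0.07 over the CDK inhibitors, beside -0.0023 over all tested genes.

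**Figure D2:**
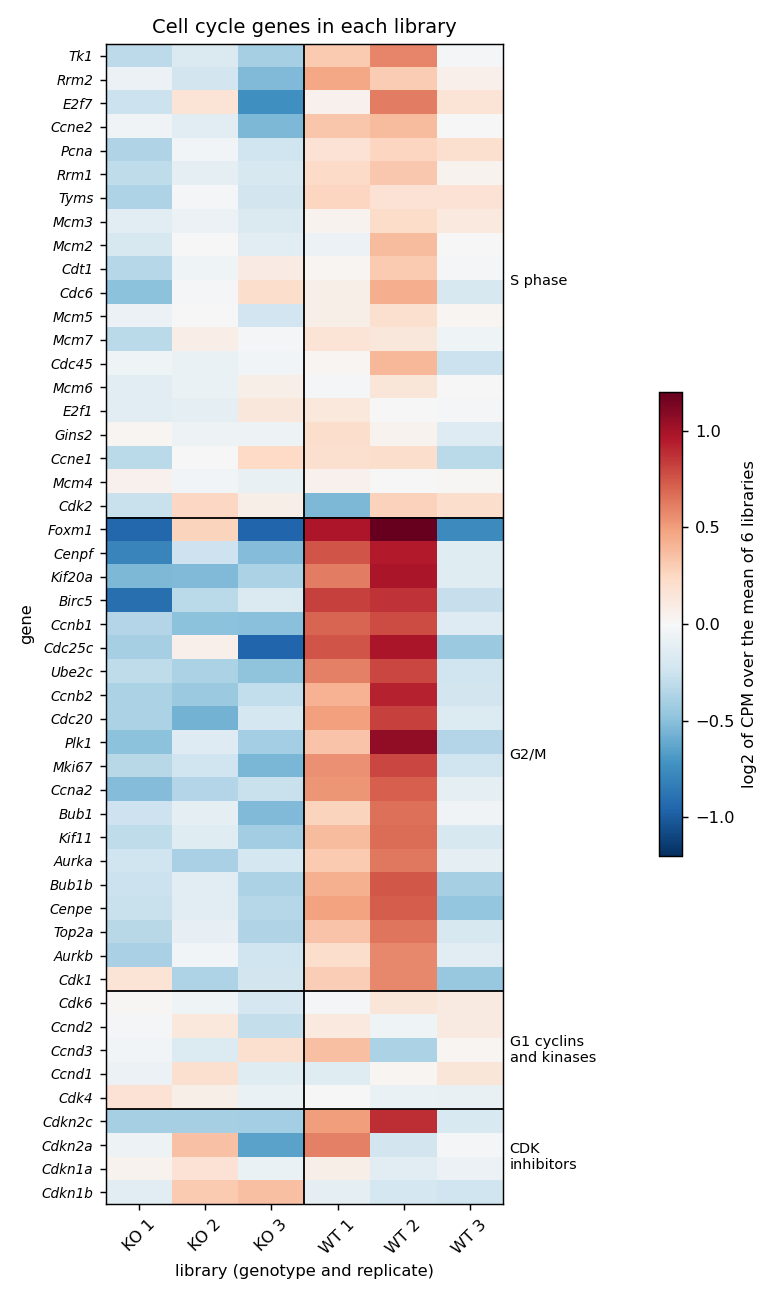
Level of each of the 49 members (rows, ordered by class and then by log2 fold change) in each of the 6 libraries (columns), as log2 of CPM over the mean of the 6 libraries, with colours saturating at the ends of the scale. The G2/M block is red in MSR1 WT replicates 1 and 2 and pale or blue in MSR1 WT replicate 3, whereas the S phase block has the same direction with paler colours.

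The 20 G2/M members all had a lower mean in MSR1 KO libraries, with log2 fold changes from -1.22 (Foxm1) to -0.33 (Cdk1). Under the study's definition 15 of the 20 were lower (5.05% of all tested genes). At an unadjusted p under 0.05, 17 were lower (10.2%), and at an adjusted p under 0.05, 0 were (2.66%). In 9 of the 20 the highest MSR1 KO library was below the lowest MSR1 WT library (13.4% of all tested genes). Taken as a sum, the G2/M members amounted to 496, 544 and 478 CPM in MSR1 KO and 900, 1102 and 541 CPM in MSR1 WT libraries. The MSR1 KO libraries were thus close to each other, and the MSR1 WT libraries were spread over a wider range that reached down to them.

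MSR1 WT replicate 3 set the lower end of this range. In all 20 G2/M members it was the lowest of the MSR1 WT libraries, while MSR1 WT replicates 1 and 2 lay above every MSR1 KO library in 20 of 20. MSR1 WT replicate 3 lay above every MSR1 KO library in 9 members, between them in 8 and below all of them in 3. Its median log2 ratio to the MSR1 KO mean was 0.14, against 1.05 for the mean of MSR1 WT replicates 1 and 2. Without MSR1 WT replicate 3, 15 G2/M members were lower at an adjusted p under 0.05 (edgeR, with the remaining 2 MSR1 WT libraries; 2.21% of all genes), and the median log2 fold change over the 20 was -1.05. Without MSR1 WT replicate 2, the highest library in all 20, that median was -0.54 and 0 were lower at this threshold. DESeq2's Wald test on all 6 libraries called 14 of the 20 lower (5.18% of all tested genes).

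**Figure D3:**
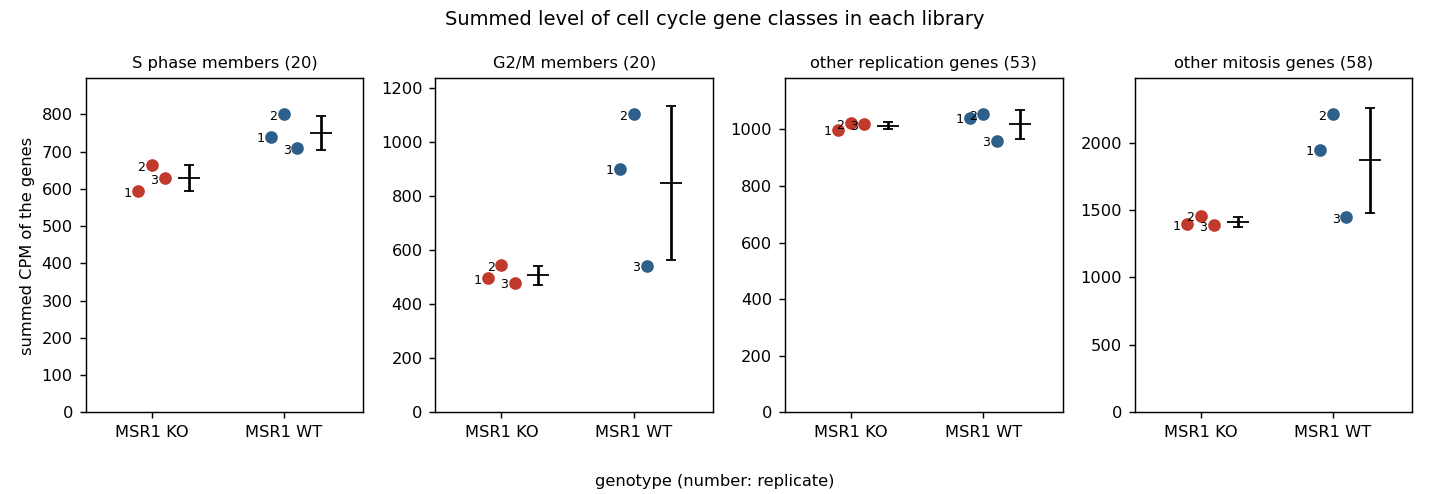
Summed CPM (vertical axis) of S phase members, G2/M members, other replication genes and other mitosis genes in each library (points, numbered by replicate), with the mean and 1 SD as bars. In the 2 mitotic panels MSR1 WT replicate 3 sits next to the 3 MSR1 KO libraries, and in the S phase panel the 2 genotypes do not overlap.

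Among the mitotic cyclins, Ccnb1 (cyclin B1, the partner of Cdk1 at entry to mitosis; chromosome 13 from 100778650 to 100786570) had 12.25, 11.10 and 11.04 CPM in MSR1 KO and 25.3, 26.9 and 14.0 CPM in MSR1 WT libraries. The groups did not overlap, the log2 fold change was -0.95 (SE 0.23) and the adjusted p was 0.055 from edgeR. Ccnb2, which encodes cyclin B2, had 12.5, 12.0 and 13.3 CPM against 21.8, 31.0 and 14.0 CPM (log2 fold change -0.82, adjusted p = 0.11 from edgeR). Ccna2 encodes cyclin A2, which serves in S phase and in G2. It had 24.8, 27.9 and 29.4 CPM in MSR1 KO and 51.3, 58.3 and 32.8 CPM in MSR1 WT libraries (log2 fold change -0.80, adjusted p = 0.057 from edgeR). All 3 cyclins met the study's definition, and in each the lowest MSR1 WT library was still above the highest MSR1 KO library. Exons of Ccna2 share 12.5% of their bases with Exosc9 on the opposite strand. Since the strand setting of the counting is not given, reads of such pairs cannot be told apart.

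Of the mitotic kinases, Plk1 (polo-like kinase 1, which acts in centrosome maturation and spindle assembly) had 12.9, 16.3 and 13.6 CPM in MSR1 KO and 22.9, 37.8 and 14.1 CPM in MSR1 WT libraries. Its log2 fold change was -0.81 (SE 0.31, adjusted p = 0.20 from edgeR), and the groups overlapped through MSR1 WT replicate 3. The value was -1.09 without MSR1 WT replicate 3 and -0.38 without MSR1 WT replicate 2, the latter under the fold of the study's definition. Aurka (Aurora A, a kinase of the spindle poles) had 11.14, 9.998 and 11.34 CPM against 16.3, 20.4 and 12.2 CPM without overlap (log2 fold change -0.59, adjusted p = 0.13 from edgeR). Both met the study's definition with all 6 libraries. Aurkb, the kinase of the chromosomal passenger complex, did not, with a log2 fold change of -0.46. Cdk1 itself had the smallest difference of the class, at 23.5, 16.2 and 17.9 CPM in MSR1 KO and 25.7, 31.2 and 15.3 CPM in MSR1 WT libraries. Its log2 fold change was -0.33 (SE 0.25, adjusted p = 0.55 from edgeR).

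The largest set within the class acts at the spindle, at kinetochores and at mitotic exit. Cenpf, a kinetochore protein (chromosome 1 from 189640606 to 189688086), had 12.6, 18.4 and 15.2 CPM in MSR1 KO and 36.9, 42.4 and 19.7 CPM in MSR1 WT libraries. It had the largest difference of the set, with a log2 fold change of -1.10 (SE 0.27, adjusted p = 0.058 from edgeR). Kif20a, a kinesin of the cleavage furrow, had 22.8, 23.0 and 25.6 CPM against 50.7, 65.7 and 30.0 CPM, without overlap (log2 fold change -1.04, adjusted p = 0.052 from edgeR). Exons of Kif20a share 29.3% of their bases with Cdc23 on the opposite strand.

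Cdc20 and Ube2c drive the anaphase-promoting complex, which marks cyclin B for destruction. Cdc20 had 13.5, 11.9 and 15.2 CPM in MSR1 KO and 24.8, 31.1 and 15.7 CPM in MSR1 WT libraries (log2 fold change -0.82, adjusted p = 0.092 from edgeR). Ube2c had 17.0, 16.2 and 15.1 CPM against 32.1, 36.7 and 17.9 CPM (log2 fold change -0.85, adjusted p = 0.088 from edgeR), with 22.8% of its exon bases shared with Tnnc2. Neither gene had overlapping groups, but in both MSR1 WT replicate 3 was nearer to the MSR1 KO libraries than to the other MSR1 WT libraries.

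Of the remaining spindle genes, Bub1, a checkpoint kinase, had 9.58, 10.55 and 7.87 CPM in MSR1 KO and 13.73, 18.02 and 11.04 CPM in MSR1 WT libraries (log2 fold change -0.61, adjusted p = 0.13 from edgeR). Bub1b, which encodes BUBR1 of the same checkpoint, had 26.8, 29.2 and 24.7 CPM against 43.0, 53.8 and 24.4 CPM (log2 fold change -0.59, adjusted p = 0.24 from edgeR). Here MSR1 WT replicate 3 was the lowest of all 6 libraries. Birc5 (survivin, of the chromosomal passenger complex) had 7.32, 11.002 and 12.16 CPM against 24.2, 25.1 and 11.3 CPM (log2 fold change -0.99, adjusted p = 0.12 from edgeR). Kif11 (the motor Eg5, which pushes spindle poles apart) had 23.97, 26.80 and 22.16 CPM against 38.54, 46.98 and 25.83 CPM (log2 fold change -0.61, adjusted p = 0.13 from edgeR). These 4 genes met the study's definition. Cenpe, a kinetochore motor, and Cdc25c, a phosphatase that activates CDK1, did not, with log2 fold changes of -0.58 and -0.93. Cdc25c was the least abundant G2/M member, at 1.47 ± 0.50 CPM in MSR1 KO and 2.79 ± 1.23 CPM in MSR1 WT libraries (SD, n = 3).

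Mki67, which encodes the proliferation antigen Ki-67 (chromosome 7 from 135689784 to 135716361), was the most abundant member of the class. It had 138, 148 and 119 CPM in MSR1 KO and 254, 304 and 148 CPM in MSR1 WT libraries, so that MSR1 WT replicate 3 was level with the highest MSR1 KO library. Its log2 fold change was -0.80 (SE 0.23, adjusted p = 0.096 from edgeR). The value was -1.05 without MSR1 WT replicate 3 (adjusted p = 0.0053 from edgeR) and -0.57 without MSR1 WT replicate 2. In the latter fit 0 members were lower at an adjusted p under 0.05. Top2a, the topoisomerase that untangles sister chromosomes, had 83.7, 98.2 and 81.9 CPM against 134, 165 and 92.5 CPM. With a log2 fold change of -0.57 it stayed just under the fold of the study's definition. Foxm1, the transcription factor of the G2/M wave (chromosome 6 from 128362967 to 128376146), had the largest difference and the largest spread, with 6.40, 14.8 and 6.35 CPM in MSR1 KO and 24.1, 32.9 and 7.21 CPM in MSR1 WT libraries. Its log2 fold change of -1.22 had an SE of 0.53 (adjusted p = 0.26 from edgeR), and MSR1 KO replicate 2 lay above MSR1 WT replicate 3. The value ranged from -1.75 to -0.77 with single libraries left out. Larger differences were then seen for Cenpf without MSR1 WT replicate 2 (-0.88) and Birc5 without MSR1 KO replicate 3 (-1.14).

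**Figure D4:**
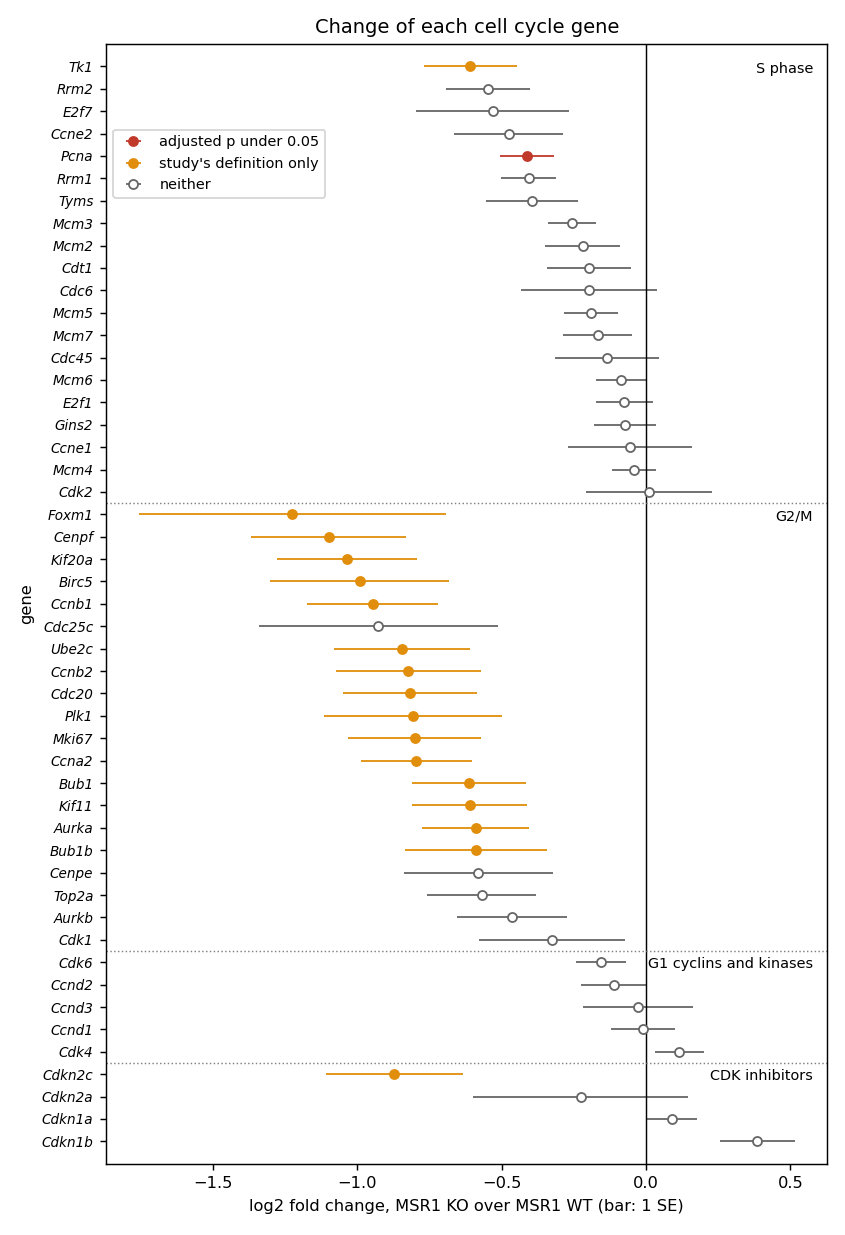
Log2 fold change of each member, MSR1 KO over MSR1 WT (horizontal axis, bar 1 SE from edgeR), by class from top to bottom, with filled points for an adjusted p under 0.05 (red, Pcna) and for the study's definition alone (orange, 17 members). All 20 G2/M points lie left of 0 with wide bars, and the S phase points lie closer to 0 with narrower ones.

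The 20 S phase members also lay mostly below 0 (19 of 20), but with smaller differences, from -0.61 (Tk1) to 0.01 (Cdk2). Of the 20, 1 was lower at an adjusted p under 0.05 (2.66% of all tested genes) and 7 at an unadjusted p under 0.05 (10.2%). The study's definition was met by 1 (Tk1), where 5.05% of all tested genes met it in the lower direction. The count at an adjusted p under 0.05 was 2 without MSR1 WT replicate 3 (Rrm1 and Tk1) and 1 without MSR1 KO replicate 2. It was 0 without any of the other 4, and DESeq2 called 4 (5.18% of all tested genes). In 8 of the 20 the highest MSR1 KO library was below the lowest MSR1 WT library (13.4% of all tested genes). Their summed level was 594, 664 and 629 CPM in MSR1 KO and 741, 801 and 709 CPM in MSR1 WT libraries, so the groups did not overlap. The exact two-sided permutation test of 3 libraries against 3 cannot give a p below 0.1, so no p is given for single sums. MSR1 WT replicate 3 was the lowest MSR1 WT library in 12 of the 20, with a median log2 ratio to the MSR1 KO mean of 0.11 against 0.27 for the mean of MSR1 WT replicates 1 and 2. The median log2 fold change of the class was -0.12 without MSR1 WT replicate 2 and -0.27 without MSR1 WT replicate 3.

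Pcna, the sliding clamp of the replicative polymerases (chromosome 2 from 132249162 to 132253314), fell in MSR1 KO libraries. It had 114, 144 and 125 CPM in MSR1 KO and 166, 176 and 168 CPM in MSR1 WT libraries, without overlap and with similar values in all 3 MSR1 WT libraries. Its log2 fold change was -0.41 (SE 0.092, adjusted p = 0.045 from edgeR). The direction held with each library left out in turn, from -0.51 to -0.33. The adjusted p was 0.031 without MSR1 KO replicate 2 and from 0.080 to 0.15 without any of the other 5 libraries, and DESeq2 gave 0.0040. Pcna-ps2, a pseudogene copy of Pcna, had 2.26 ± 0.53 CPM in MSR1 KO and 2.998 ± 0.39 CPM in MSR1 WT libraries (SD, n = 3). How the counting treated reads that match both is not given in the sources used here.

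Of the enzymes of nucleotide supply, Tk1 and Rrm2 had the largest differences of the class. Tk1 (thymidine kinase of the salvage route; chromosome 11 from 117815526 to 117826092) had 11.9, 13.2 and 11.3 CPM in MSR1 KO and 18.5, 22.3 and 14.7 CPM in MSR1 WT libraries (log2 fold change -0.61, SE 0.16, adjusted p = 0.077 from edgeR). Rrm1, the large subunit of ribonucleotide reductase, had 63.6, 73.3 and 68.9 CPM against 92.6, 98.8 and 81.2 CPM (log2 fold change -0.41, adjusted p = 0.053 from edgeR). Its small subunit Rrm2 had a log2 fold change of -0.55 and thymidylate synthase Tyms one of -0.40, and neither passed an adjusted p of 0.05. In all 4 of these genes the groups did not overlap.

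The replication licensing and fork genes other than Pcna had smaller differences, with log2 fold changes from -0.26 (Mcm3) to -0.04 (Mcm4). Of the helicase subunits, Mcm3 (log2 fold change -0.26) and Mcm5 (-0.19) had non-overlapping groups, and Mcm2, Mcm4, Mcm6 and Mcm7 overlapped, with log2 fold changes from -0.22 to -0.04. Mcm3 had 41.2, 43.2 and 40.0 CPM in MSR1 KO and 46.69, 52.92 and 49.04 CPM in MSR1 WT libraries. Its unadjusted p was 0.013 and its adjusted p was 0.13, both from edgeR. The loading factors Cdc6 and Cdt1 both had a log2 fold change of -0.20 with SEs of 0.24 and 0.15, and Cdc45, which activates the helicase, had one of -0.14. Gins2, of the same active helicase, shares 67.3% of its exon bases with Gse1, so its value of -0.07 is uncertain. Among the class's cyclins and kinase, Ccne2 was -0.48 without overlap, Ccne1 -0.06 and Cdk2 0.01, the last with 23.2, 33.2 and 29.2 CPM against 19.1, 33.7 and 32.2 CPM. E2f1, which turns on S phase genes, had 33.8, 34.1 and 40.6 CPM against 40.5, 37.2 and 36.6 CPM (log2 fold change -0.08, SE 0.098), and the repressor E2f7 had a log2 fold change of -0.53 (SE 0.27).

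Of the 5 G1 genes, 0 were called by edgeR at an adjusted p under 0.05, at an unadjusted p under 0.05 or under the study's definition, and 0 by DESeq2. Ccnd1 (cyclin D1, induced by growth factors such as M-CSF) had 91.0, 109 and 86.2 CPM in MSR1 KO and 86.4, 96.7 and 105 CPM in MSR1 WT libraries, with a log2 fold change of -0.01 (SE 0.11). Cdk4, the kinase that cyclin D activates, had 98.4, 91.6 and 82.5 CPM against 87.3, 82.3 and 82.0 CPM (log2 fold change 0.12, SE 0.085). Ccnd2, Ccnd3 and Cdk6 had log2 fold changes from -0.16 to -0.03. With reads divided by exon length, Ccnd1 was the most abundant D-type cyclin in MSR1 WT libraries, at 20.4 CPM per kilobase of exon against 8.29 for Ccnd2 and 1.74 for Ccnd3, and Cdk4 (25.8) was above Cdk6 (5.65). Exons of Ccnd1 and Cdk4 share 23.4% and 19.7% of their bases with genes on the opposite strand.

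The 4 CDK inhibitors did not share a direction. Cdkn2c (p18INK4c, an inhibitor of CDK4 and CDK6; chromosome 4 from 109660876 to 109667189) had 10.5, 10.5 and 10.4 CPM in MSR1 KO and 19.6, 25.5 and 12.2 CPM in MSR1 WT libraries. It met the study's definition in the lower direction (log2 fold change -0.87, SE 0.24, adjusted p = 0.082 from edgeR), and MSR1 WT replicate 3 was again the lowest of its group. Cdkn1b (p27KIP1, an inhibitor of CDK2 that marks resting cells) had 47.5, 64.5 and 66.5 CPM in MSR1 KO and 47.8, 44.8 and 43.9 CPM in MSR1 WT libraries. The groups overlapped through MSR1 KO replicate 1, and the log2 fold change was 0.39 (SE 0.13, adjusted p = 0.15 from edgeR). Cdkn1a (p21, a target of p53) was the most abundant inhibitor, at 193, 211 and 177 CPM against 196, 171 and 179 CPM (log2 fold change 0.09). Cdkn2a was the least abundant, at 1.23, 1.63 and 0.82 CPM against 1.94, 1.10 and 1.26 CPM.

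Other genes of the same steps, from lists that hold none of the members, were counted in the same way. Of 58 other mitosis genes, 8 fell at an adjusted p under 0.05 (13.8%, against 2.66% of all tested genes). The study's definition was met in the lower direction by 25 (5.05% of all tested genes). Of the 58, 56 had a log2 fold change below 0 (50.4% of all tested genes), with a median of -0.55. Prc1, which bundles microtubules of the central spindle, had 16.5, 18.8 and 16.2 CPM in MSR1 KO and 36.3, 41.9 and 22.6 CPM in MSR1 WT libraries (log2 fold change -0.97, SE 0.21, adjusted p = 0.039 from edgeR). Anln, a scaffold of the contractile ring, had 20.4, 22.6 and 19.3 CPM against 40.02, 49.99 and 29.82 CPM (log2 fold change -0.95, SE 0.18, adjusted p = 0.027 from edgeR). Ckap2 (-0.91), Kif18b (-0.90) and Racgap1 (-0.78) also fell. In all 5, MSR1 WT replicate 3 was the lowest MSR1 WT library and lay above every MSR1 KO library. The count of 8 changed with single libraries, and was 29 without MSR1 WT replicate 3, 1 without MSR1 KO replicate 1 and 0 without any of the other 4.

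Of 53 other replication genes, 0 fell and 1 rose (1.89%) at an adjusted p under 0.05, against 2.66% and 2.25% of all tested genes. Their median log2 fold change was -0.04. The gene that rose was Pold2, a subunit of DNA polymerase delta, with 12.1, 13.9 and 13.9 CPM in MSR1 KO and 9.46, 8.33 and 8.81 CPM in MSR1 WT libraries (log2 fold change 0.59, SE 0.12, adjusted p = 0.038 from edgeR). This call was lost with any library left out. Their summed level was 998 to 1021 CPM in MSR1 KO and 959 to 1053 CPM in MSR1 WT libraries. Of 40 other regulators of the cycle, 0 were called in either direction by edgeR at an adjusted p under 0.05, with a median of -0.13. At an unadjusted p under 0.05, 7 were lower and 0 higher (10.2% and 8.65% of all tested genes), and DESeq2 called 3 lower (5.18%).

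**Figure D5:**
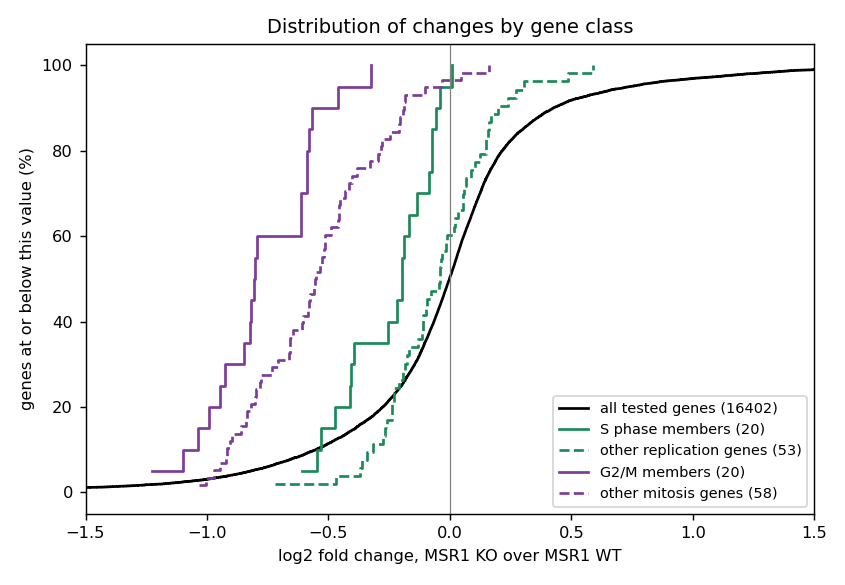
Cumulative share of genes (%, vertical axis) at or below each log2 fold change, MSR1 KO over MSR1 WT (horizontal axis), for all tested genes and 4 cell cycle classes (lines). Both mitotic curves lie to the left of the curve of all genes, the S phase curve lies between, and the curve of the other replication genes runs close to all genes.

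Genes around the cycle were read from 2 further lists. Of 23 tested p53 targets, 1 rose, namely Bbc3 (PUMA, a promoter of apoptosis), with 35.9, 40.7 and 41.0 CPM in MSR1 KO and 29.8, 25.3 and 28.4 CPM in MSR1 WT libraries (log2 fold change 0.49, adjusted p = 0.031 from edgeR). The median of the list was 0.06. Of 23 genes that govern macrophage growth (M-CSF and its receptor, MYC, MAF and others), 1 fell (4.35%, against 2.66% of all tested genes). This was Csf1, which encodes M-CSF, with 73.6, 69.3 and 68.9 CPM in MSR1 KO and 123, 118 and 119 CPM in MSR1 WT libraries (log2 fold change -0.76, SE 0.069, adjusted p = 0.0036 from edgeR). Csf1 was the 1 lower gene of this list with each library left out in turn as well. The call of Bbc3 was lost with any library left out, and the 1 higher gene of the p53 list was then Gdf15 without MSR1 WT replicate 2 and Pmaip1 without MSR1 WT replicate 3, with 0 higher without any of the other 4 libraries. M-CSF was also added to the medium during the 7 days of culture.

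Markers of other cells were counted in the same libraries, since marrow cultures can hold dividing cells that are not macrophages. Of 16 stromal markers 5 were lower and 0 higher at an adjusted p under 0.05 (2.66% and 2.25% of all tested genes). At an unadjusted p under 0.05, 8 were lower and 2 higher by edgeR (10.2% and 8.65% of all tested genes). The summed level of these markers was 2480 to 3172 CPM in MSR1 KO and 3389 to 4143 CPM in MSR1 WT libraries, without overlap. Fn1, Acta2 and Col1a2 were the most abundant of them, although BMSCs were kept behind the membrane. MSR1 WT replicate 3 was not the lowest MSR1 WT library for this sum. Of 7 progenitor markers 2 (Kit and Ly6a) were higher at an adjusted p under 0.05 (28.6%, against 2.25% of all tested genes). The sum of the 7, to which the member Cdk6 belongs, was 248 to 321 CPM in MSR1 KO and 135 to 184 CPM in MSR1 WT libraries. MSR1 WT replicate 3 had the highest MSR1 WT value of this sum. None of 11 neutrophil and granulocyte precursor markers was called by edgeR at an adjusted p under 0.05. At an unadjusted p under 0.05, 2 were higher and 0 lower (8.65% and 10.2% of all tested genes). All 11 had a log2 fold change above 0, with a median of 0.35, where 50.4% of all tested genes lay below 0. Their sums were 716 to 1136 CPM in MSR1 KO and 468 to 865 CPM in MSR1 WT libraries, lowest in MSR1 WT replicate 3. The B cell list had 1 gene of 3 tested lower at an adjusted p under 0.05, against 2.66% of all tested genes. This was Ebf1 (log2 fold change -1.07), and the other 2 tested genes had a log2 fold change above 0. Igll1 was at 0 in every library, and sums were 24.8 to 28.1 CPM in MSR1 KO and 25.5 to 29.3 CPM in MSR1 WT libraries. The T and NK cell list had 1 gene of 5 tested higher at an adjusted p under 0.05, against 2.25% of all tested genes. Its sums of 110 to 160 CPM in MSR1 KO and 93.6 to 151 CPM in MSR1 WT libraries were mostly Cd4. Of the erythroid list, Hbb-bs and Hbb-bt were at 0 in every library, which allows up to 0.0835 CPM in the shallowest library (3 counts, counting error only), and sums were 119 to 138 CPM and 136 to 182 CPM, almost all from Tfrc. The erythroid sum of MSR1 WT replicate 3 was the lowest of the MSR1 WT libraries and lay within the range of the MSR1 KO libraries. The part of the stromal, progenitor, neutrophil and erythroid markers in the G2/M result was not tested.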

How the data were processed

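RNA-seq libraries of BMDMs (3 MSR1 KO, 3 MSR1 WT) were compared by genotype as labelled. The submitters' processing notes name fastp 0.17.1, HISAT2 2.1.0, DESeq2 1.18.1 and R 3.4.3, whereas the study's methods name TopHat as the aligner. The counting program, strand setting and genome build are not given in the sources used here. The authors deposited raw counts per gene and library, which were used here, with 0 value columns left without a sample. The authors also deposited a signal column per library (the count divided by a size factor) and, from their own comparison, log2 fold changes and p-values, and none of these was used. Positions are those of the deposited table. Of its 52550 gene identifiers 52403 were found in GENCODE M21 (GRCm38), 49909 with the same start and end, among them 46 of the 49 members.

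With edgeR 4.0.16 (R 4.3.3), genes of low count were removed by filterByExpr, libraries were scaled by TMM, and genotype was tested by the quasi-likelihood F test (glmQLFit, then glmQLFTest), with Benjamini-Hochberg adjustment over 16402 genes. An SE is the fitted log2 fold change divided by the root of its F value. DESeq2 1.42.0 was an alternative. The methods were tested on simulated counts. Libraries of a genotype differed by more than sampling noise (chi-square over its degrees of freedom 26.1 to 52.1). Effective lengths were exon unions of GENCODE M21. The 49 members, the gene lists and the markers were chosen with earlier results of these data known. Values in every library are given for members with an adjusted p under 0.05 or meeting the study's definition, and, of each role, for the most abundant member and the one with the largest difference, and of wider lists up to 5 genes with an adjusted p under 0.05 are named. Values of Top2a, Cdk1, Mcm3, Cdk2, Cdkn1b and Cdkn2a were added after they had been seen, and Gdf15 and Pmaip1 were named after their calls had been seen. Same-numbered MSR1 KO and MSR1 WT libraries did not deviate together (r = 0.0165, -0.00984 and -0.0389), so no pairing was used. The alternatives were DESeq2's test, its size factors, library size alone, other filters, the replicate number as a block and each library left out in turn.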

Additional observations from a re-analysis of the deposited data

How the results depend on the processing

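Direction was stable under the scaling and filter alternatives, since all 20 G2/M members lay below 0 under every alternative and with each library left out, and the only member to change sign under another scaling or filter was Cdk2 (-0.024 with library size alone). The number of calls was not stable. DESeq2's Wald test called 19 members lower (14 G2/M, 4 S phase and 1 inhibitor), 25 other mitosis genes, 2 other replication genes and 3 other regulators lower, 2 p53 targets higher and 1 lower, 2 growth control genes higher and 3 lower, and 727 genes higher and 850 lower over all tested genes. Of its 19 members, 16 were among the 18 called by edgeR without MSR1 WT replicate 3. A minimum of 10 counts in every library called 6 members lower (4 G2/M and 2 S phase), 2 p53 targets and 1 growth control gene higher. Library size alone called 3 (1 G2/M and 2 S phase), with medians of 0.025 for the p53 list and -0.043 for the growth control list. Without a filter beyond a total above 0, 0 members, 0 other replication genes and 3 other mitosis genes were called, with 237 genes higher and 288 lower in all. With the replicate number as a block, which the libraries' deviations gave no ground for, 0 members (0 S phase), 0 other replication genes, 0 p53 targets and 2 other mitosis genes were called, with 59 genes higher and 78 lower in all. The median of all tested genes was 0.0027 with DESeq2, 0.0027 with its size factors, -0.034 with library size alone, -0.0066 without a filter and 0.0026 with 10 counts.

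With each library left out in turn, members lower at an adjusted p under 0.05 ranged from 0 to 18 (G2/M 0 to 15, S phase 0 to 2, G1 genes and inhibitors 0 to 1) and under the study's definition from 7 to 22. Lower genes ranged from 0 to 29 in the other mitosis list, 0 to 1 in the other replication list and 0 to 3 among other regulators, and higher genes from 0 to 1 in the p53 list, 0 to 1 in the growth control list and 0 to 0 in the other replication list. All tested genes ranged from 18 to 407 higher and 53 to 372 lower. Medians ranged from -1.05 to -0.54 (G2/M), -0.27 to -0.12 (S phase), -0.75 to -0.38 (other mitosis), -0.057 to 0.015 (other replication), -0.18 to -0.062 (other regulators), 0.016 to 0.046 (p53), -0.030 to 0.035 (growth control) and -0.0049 to 0.0026 (all tested). Leaving out single libraries turned the sign of Ccne1 (-0.21 to 0.083), Ccnd1 (-0.12 to 0.063), Ccnd2 (-0.21 to 0.00088), Ccnd3 (-0.20 to 0.17), Cdk2 (-0.21 to 0.15), Cdc45 (-0.28 to 0.054), Gins2 (-0.16 to 0.022) and Cdkn2a (-0.49 to 0.054), none of which was called. The cause of the differences between alternatives was not tested. Depth limits Cdkn2a and Cdc25c most, which had the fewest counts of the members.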
